A study of Rattus norvegicus with 6 samples.

Results

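The fibroblast growth factor (FGF) genes described here are 6 secreted ligands (Fgf1, Fgf2, Fgf5, Fgf7, Fgf10 and Fgf18) and 4 receptors (Fgfr1, Fgfr2, Fgfr3 and Fgfrl1). They were taken by gene symbol from count tables of 30945 genes, each of the 10 symbols standing on 1 row. The tables come from RNA sequencing of 6 libraries of primary smooth muscle cells of rat blood vessels, which contract to set vessel width. In 3 libraries the cells carried the label siRNA_ANK, a small interfering RNA named for ANK, which was read here as the protein of the gene Ankh, and in the other 3 the label Negative_control. No age, strain, dose or time after siRNA delivery is given, and nothing says whether a group's libraries stem from different animals or cultures. The p-values therefore cover only how far these 6 libraries spread, and that spread may be technical. Whether fewer cells of a type or less RNA per cell underlies a lower count cannot be told apart in such bulk samples.

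FGFs are secreted or released signalling proteins that bind receptor tyrosine kinases at the cell surface together with heparan sulfate, a sulfated polysaccharide. The activated receptor passes the signal through adaptor proteins to the RAS-ERK kinase cascade, which in turn induces inhibitors such as the Sprouty proteins. In the vessel wall FGF2 is known as a mitogen of smooth muscle cells, and FGF receptor signalling is known to oppose the contractile state of these cells.

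The libraries held 15641259 to 17441548 counts over genes. Ankh measured 84.9, 76.7 and 120 CPM, a count per library size after TMM scaling, in siRNA_ANK libraries and 338, 351 and 367 CPM in negative controls, or -1.91 ± 0.16 as a log2 fold change (SE, edgeR adjusted p = 0.000180). On the first principal component, siRNA_ANK replicate 3 and negative control replicate 2 lay nearest to the other group. Over all 13016 genes tested, 19.9% were higher in siRNA_ANK and 20.2% lower at an adjusted p under 0.05 (edgeR), the shares to set beside each list count. Of 8 smooth muscle markers, 7 were higher in siRNA_ANK and none lower, with a summed level of 5155 to 6173 CPM in siRNA_ANK and 2595 to 3608 CPM in negative controls. Among them Acta2, which encodes smooth muscle actin, was 2.14-fold higher, Lmod1 1.84-fold, Smtn 1.62-fold and Tagln 1.51-fold. Of 10 adventitial fibroblast markers, 9 were tested, 6 were higher and 1 was lower, with summed levels of 1099 to 1138 and 1036 to 1040 CPM in the same order of groups. Most of each sum was Serpinf1, at a mean of 874 and 854 CPM and not called (edgeR adjusted p = 0.630). Clec3b, among the 6 higher, had 31, 13 and 10 counts in siRNA_ANK libraries and 1, 4 and 0 in negative controls. Clec3b passed the filter on low counts only because of the siRNA_ANK libraries, so its call is not independent of that filter. Scara5 was 3.15-fold and Lum 2.06-fold higher, Mfap5 was 1.40-fold lower, and Dcn was higher at 17.7 ± 1.16 CPM in siRNA_ANK and 11.8 ± 0.222 CPM in negative controls (SD, n = 3 each). Of 10 endothelial markers, 4 were tested, 1 was higher and 1 lower, with 24.8 to 27.7 CPM summed in siRNA_ANK and 16.0 to 21.1 CPM in negative controls, with Erg 3.71-fold higher and Egfl7 1.89-fold lower. Cdh5, Kdr, Tie1 and Emcn were at 0 counts in every library, and Pecam1 had 4 counts over the siRNA_ANK libraries and 1 over the controls. Vwf had 4, 4 and 7 counts in siRNA_ANK and 0, 2 and 1 in negative controls, which did not overlap but fell below the filter on low counts. Tek was tested and not called, with 41 and 43 counts over the siRNA_ANK and control libraries, as was Esam, with 22 and 34. None of the 10 macrophage markers passed the filter on low counts, with 0.570 to 1.56 CPM summed in siRNA_ANK and 1.01 to 1.25 CPM in negative controls, and Ptprc, Cd163, C1qa, Tyrobp and Adgre1 were at 0. The part of these marker levels in the FGF results was not tested.

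Several FGF genes were more abundant in siRNA_ANK cells. The ligand genes Fgf18 and Fgf1 and the receptor genes Fgfr2 and Fgfr1 rose, and Fgfr3 fell. Fgf2, Fgf7, Fgf10 and Fgfrl1 did not pass the test, and Fgf5 had no count in any library. Of the 10 genes, 9 passed the filter on low counts and were tested. At an adjusted p under 0.05, 4 were higher, against 19.9% of all 13016 genes tested, and 1 was lower, against 20.2%. In either direction 40.1% of all genes were called, so that calls were common in this comparison as a whole. At least 2-fold rises were found for 3 of the 9 tested genes (Fgf18, Fgf1 and Fgfr2), against 4.56% of all genes tested. At least 2-fold falls were found for none, against 2.58%. The members were chosen with earlier results of these data known. Values of siRNA_ANK and control libraries were fully separated for 6 of the 9 tested members (Fgf1, Fgf7, Fgf18, Fgfr1, Fgfr2 and Fgfr3), against 51.1% of all genes tested. The median log2 fold change was 0.29 over the 9 tested members and 0.01 over all genes tested.

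**Figure D1:**
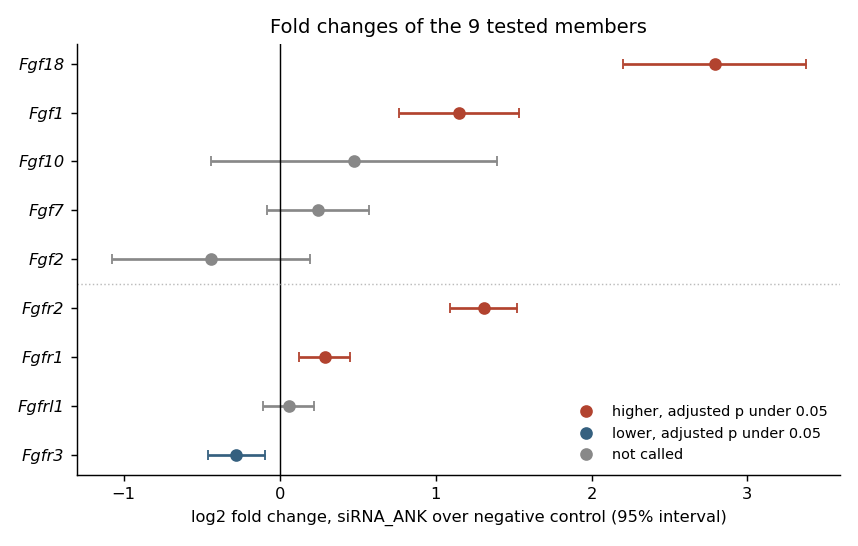
Log2 fold change of each tested FGF ligand gene (above the dotted line) and receptor gene (below it), siRNA_ANK over negative control, with 95% intervals from the edgeR fit and colours for calls at an adjusted p under 0.05. Fgf18 stands furthest to the right at 2.79, Fgfr2 and Fgf1 lie above 1, and Fgfr3 is the called gene left of 0.

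Promoter sequences from RefSeq (build GRCr8, 250 bases before to 50 after the start of the gene) were matched for 9 of the 10 genes, the exception being Fgfr1. They are shown for the ligand gene with the largest rise, the receptor gene with the largest rise and the receptor gene that fell. Capitals mark matches on either strand to the GC box (GGGCGG) or the CCAAT box (CCAAT), none of which overlap each other. The Fgf18 sequence is chr10:18240833-18241132, the Fgfr2 sequence chr1:194280865-194281164 and the Fgfr3 sequence chr14:81227160-81227459, each given 5′ to 3′ on the minus strand.
Fgf18: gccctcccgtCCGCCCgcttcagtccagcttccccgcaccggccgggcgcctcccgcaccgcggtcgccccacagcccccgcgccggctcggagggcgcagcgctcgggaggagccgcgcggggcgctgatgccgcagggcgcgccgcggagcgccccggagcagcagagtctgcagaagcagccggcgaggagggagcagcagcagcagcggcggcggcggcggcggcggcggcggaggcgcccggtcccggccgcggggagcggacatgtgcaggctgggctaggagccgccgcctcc
Fgfr2: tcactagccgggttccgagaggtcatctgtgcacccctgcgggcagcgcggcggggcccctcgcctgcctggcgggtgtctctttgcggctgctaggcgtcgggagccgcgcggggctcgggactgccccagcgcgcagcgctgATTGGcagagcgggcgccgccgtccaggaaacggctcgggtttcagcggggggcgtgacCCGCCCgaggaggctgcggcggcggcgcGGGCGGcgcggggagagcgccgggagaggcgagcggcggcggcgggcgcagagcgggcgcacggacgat
Fgfr3: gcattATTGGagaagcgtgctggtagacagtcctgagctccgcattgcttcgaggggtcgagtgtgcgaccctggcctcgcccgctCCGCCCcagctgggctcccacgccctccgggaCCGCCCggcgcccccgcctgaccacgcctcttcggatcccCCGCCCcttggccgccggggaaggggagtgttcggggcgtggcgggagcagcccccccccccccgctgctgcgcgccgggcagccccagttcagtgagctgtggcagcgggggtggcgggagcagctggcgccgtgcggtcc

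These 3 promoters were rich in G and C, with 81.3%, 77.7% and 74.7% for Fgf18, Fgfr2 and Fgfr3, against a median of 51.7% over 33469 promoters of the same length. Among the 9 matched FGF promoters the share ran down to 43.7% for Fgf7 and 48.3% for Fgf1, so the genes that rose did not share this feature. The GC box was found 1 time in the Fgf18 promoter, 2 times in that of Fgfr2 and 3 times in that of Fgfr3, and at least once in 33.1% of all promoters. A CCAAT box was found 1 time each in the Fgfr2 and Fgfr3 promoters, against 37.5% of all promoters with at least 1 match. None of the 3 windows held the letters of an AP-1 site (TGANTCA, in 7.33% of all promoters), of a TCF/LEF site (CTTTGA, 16.1%), of a TEAD site (CATTCC, 14.2%) or a CArG box (1.64%), all searched on both strands.

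Among the ligands, Fgf18 showed the largest change. Its protein is known for its role in bone and cartilage growth, where FGFR3 is among its receptors. Fgf18 (ENSRNOG00000048389, chromosome 10, 17706174 to 17736818 on the minus strand of mRatBN7.2) measured 5.88, 8.33 and 4.94 CPM in siRNA_ANK libraries, against 0.788, 1.21 and 0.750 CPM in negative controls. All 3 siRNA_ANK values lay above the controls, and siRNA_ANK replicate 2 was the highest. The means were 6.38 ± 1.75 and 0.915 ± 0.255 CPM (SD, n = 3 each), a 6.91-fold rise, or 2.79 ± 0.27 on the log2 scale (SE, edgeR adjusted p = 2.06e-06). These levels rest on 315 counts over the siRNA_ANK libraries and 47 over the controls.

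Fgf1 encodes acidic FGF, which binds every FGF receptor with a kinase domain. Fgf1 (ENSRNOG00000013867, chromosome 18, 30686581 to 30772357, minus strand) measured 8.87, 9.70 and 8.99 CPM in siRNA_ANK and 3.43, 5.47 and 3.50 CPM in negative controls. The siRNA_ANK values were close together and above all controls, among which replicate 2 was the highest. Fgf1 averaged 9.19 ± 0.449 CPM in siRNA_ANK and 4.13 ± 1.16 CPM in negative controls (SD, n = 3 each), 2.22-fold higher, or 1.15 ± 0.18 on the log2 scale (SE, edgeR adjusted p = 0.000150).

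Fgf2, Fgf7 and Fgf10 were not called. Fgf2 encodes basic FGF, the smooth muscle mitogen named above, and measured 1.26, 2.76 and 2.34 CPM in siRNA_ANK libraries and 2.19, 3.74 and 2.69 CPM in negative controls. The groups overlapped, and the log2 fold change of -0.44 had a 95% interval from -1.08 to 0.20 (edgeR adjusted p = 0.262), which includes both a 2-fold fall and no change. The Fgf2 locus (chromosome 2, 120236328 to 120291221, plus strand) overlaps Nudt6 on the minus strand, which held 240 counts over the siRNA_ANK libraries and 239 over the controls. No strand setting of the counting is known, so reads of these 2 genes may not be told apart. Fgf2 itself had 104 and 147 counts over siRNA_ANK and control libraries.

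Fgf7 encodes keratinocyte growth factor, a mesenchymal ligand of the epithelial isoform of FGFR2. It measured 6.83, 7.67 and 6.90 CPM in siRNA_ANK and 5.12, 6.22 and 6.75 CPM in negative controls. The lowest siRNA_ANK value lay just above the highest control value, and the log2 fold change of 0.25 (95% interval -0.08 to 0.57, edgeR adjusted p = 0.221) missed the threshold. Fgf7 (chromosome 3, 113281283 to 113332929, plus strand) overlaps Fam227b on the other strand, which had 49 counts over the siRNA_ANK libraries and 37 over the controls. Fgf10, whose protein acts through the same FGFR2 isoform, was close to the limit of detection. It had 12, 10 and 13 counts in siRNA_ANK libraries and 11, 5 and 10 in negative controls, and at this depth its 95% interval ran from -0.44 to 1.40 on the log2 scale (edgeR adjusted p = 0.405).

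Fgf5, known as a regulator of hair growth, had 0 counts in all 6 libraries. A count of 0 allows up to 3 counts over a group, which is 0.0610 CPM in siRNA_ANK and 0.0587 CPM in negative controls, and covers counting error only. Its gene model in the files, of 801 bases, is the shortest among the 10 genes.

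**Figure D2:**
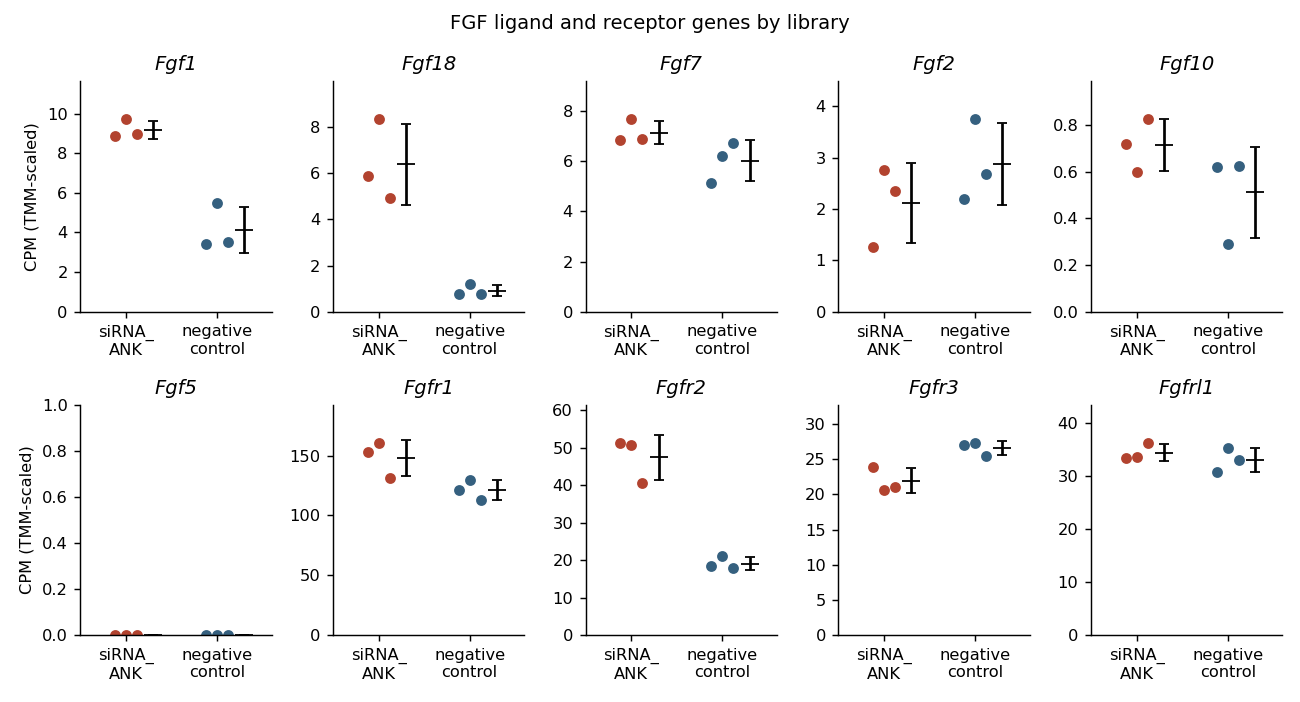
TMM-scaled CPM of the 10 FGF genes in each library, with siRNA_ANK replicates 1, 2 and 3 on the left and negative control replicates 1, 2 and 3 on the right of each panel, and mean and SD (n = 3) beside them. Each panel has its own axis from 0. The groups are furthest apart for Fgf18, Fgf1 and Fgfr2, and Fgf5 is at 0 throughout.

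Among the receptors, Fgfr2 rose most. This receptor tyrosine kinase is made in an epithelial and a mesenchymal isoform by alternative splicing, which counts per gene do not separate. Fgfr2 (ENSRNOG00000016374, chromosome 1, 184745420 to 184850626, minus strand) measured 51.2, 50.7 and 40.6 CPM in siRNA_ANK and 18.5, 21.1 and 17.9 CPM in negative controls. All siRNA_ANK libraries lay well above all controls, with replicate 3 the lowest of them. The means were 47.5 ± 5.98 CPM in siRNA_ANK and 19.2 ± 1.69 CPM in negative controls (SD, n = 3 each), a 2.48-fold rise, or 1.31 ± 0.10 on the log2 scale (SE, edgeR adjusted p = 2.33e-07).

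Fgfr1, the main FGF receptor gene of many mesenchymal cells, was the most abundant member and rose by a small amount. Fgfr1 (ENSRNOG00000016050, chromosome 16, 66494042 to 66547350, minus strand) measured 153, 160 and 131 CPM in siRNA_ANK and 121, 130 and 113 CPM in negative controls. The lowest siRNA_ANK value, in replicate 3, lay just above the highest control value, in replicate 2. This was a 1.22-fold rise, or 0.29 ± 0.08 on the log2 scale (SE, edgeR adjusted p = 0.00774). The locus also holds a snoRNA gene on the plus strand, with 25 counts over the siRNA_ANK libraries and 18 over the controls, against 7294 and 6205 for Fgfr1.

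Fgfr3 encodes a receptor known to restrain the growth of cartilage in long bones. Fgfr3 (ENSRNOG00000016818, chromosome 14, 76987993 to 77003341, minus strand) measured 23.9, 20.7 and 21.1 CPM in siRNA_ANK and 26.9, 27.2 and 25.5 CPM in negative controls. Every siRNA_ANK value was below every control value, and Fgfr3 fell 1.21-fold (log2 fold change -0.28 ± 0.09, SE, edgeR adjusted p = 0.0177). This call was lost without siRNA_ANK replicate 2 (adjusted p = 0.0671), without negative control replicate 1 (adjusted p = 0.0640) or without negative control replicate 2 (adjusted p = 0.0533), while the sign stayed negative.

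Fgfrl1 encodes a receptor that binds FGFs but lacks the kinase domain. It measured 33.5, 33.5 and 36.2 CPM in siRNA_ANK and 30.8, 35.2 and 33.1 CPM in negative controls. The groups overlapped, and the 95% interval of the log2 fold change of 0.06 ran from -0.11 to 0.22 (edgeR adjusted p = 0.587), an interval that holds no 2-fold change in either direction.

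To set genes side by side, counts were divided by gene length and scaled to a common total, in the unit TPM. The 4 receptor genes together measured 204, 206 and 178 TPM in siRNA_ANK and 159, 173 and 156 TPM in negative controls. The 6 ligand genes together measured 26.1, 34.2 and 26.7 TPM in siRNA_ANK and 14.5, 20.9 and 17.6 TPM in negative controls, 1.64-fold higher in siRNA_ANK. Neither sum overlapped between the groups, and the exact two-sided permutation test gave p = 0.1 for each, the smallest value that 3 against 3 libraries allow, so no such test could pass the threshold.

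Fgfr1 ranked first among the receptor genes in TPM in both groups and Fgfrl1 second. In siRNA_ANK libraries Fgfr2 came next at 27.7 ± 3.77 TPM and Fgfr3 last at 14.2 ± 1.26 TPM. In negative controls this order was turned, with Fgfr3 at 17.5 ± 0.470 TPM and Fgfr2 at 11.4 ± 0.955 TPM (SD, n = 3 each). Each order held in all 3 libraries of its group, and no neighbours overlapped. Fgfr2 made up 14.1 ± 0.860% of the summed receptor TPM in siRNA_ANK and 6.98 ± 0.193% in negative controls. Fgfr3 made up 7.25 ± 0.644% and 10.8 ± 0.398% in the same groups (exact permutation p = 0.1 each, SD, n = 3). The share of Fgfr1 was 58.9 ± 2.03% in siRNA_ANK and 59.1 ± 1.12% in negative controls, a difference within the spread of the libraries. This depends on which receptors are summed. With Fgfrl1 left out of the sum, the difference in the Fgfr1 share (siRNA_ANK minus negative control) was -3.51 instead of -0.21 points.

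Among the ligand members the order also differed. In siRNA_ANK Fgf18 led at 9.62 ± 2.69 TPM, then Fgf7 at 7.66 ± 0.522, Fgf1 at 6.59 ± 0.342, Fgf2 at 4.47 ± 1.62 and Fgf10 at 0.663 ± 0.0989 TPM. In negative controls Fgf7 led at 6.59 ± 0.961 TPM, then Fgf2 at 6.17 ± 1.69, Fgf1 at 3.02 ± 0.836, Fgf18 at 1.40 ± 0.386 and Fgf10 at 0.484 ± 0.184 TPM (SD, n = 3 each). The values of Fgf18 and Fgf7 overlapped in siRNA_ANK, as did those of Fgf7 and Fgf2 in negative controls, where Fgf7 was the higher in 2 of 3 libraries. The share of Fgf18 in the summed TPM of the 6 ligands was 32.8 ± 4.76% in siRNA_ANK and 7.90 ± 1.17% in negative controls. Fgf2 made up 15.2 ± 4.32% in siRNA_ANK and 34.6 ± 3.31% in negative controls (exact permutation p = 0.1 each, SD, n = 3), although its own level was not called. Fgf7 made up 26.6 ± 2.22% in siRNA_ANK and 37.7 ± 4.96% in negative controls, and Fgf1 23.0 ± 2.24% and 17.0 ± 2.21% in the same groups, again without overlap (exact permutation p = 0.1 each, SD, n = 3). These shares depend on which ligands are summed, since each gene's share moves with the others. With all 17 secreted ligand genes of the files in the sum, Fgf22 among them, the difference (siRNA_ANK minus negative control) was 14.2 instead of 24.9 points for Fgf18, -6.59 instead of -19.4 for Fgf2, -1.55 instead of -11.0 for Fgf7 and 4.98 instead of 6.01 for Fgf1.

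**Figure D3:**
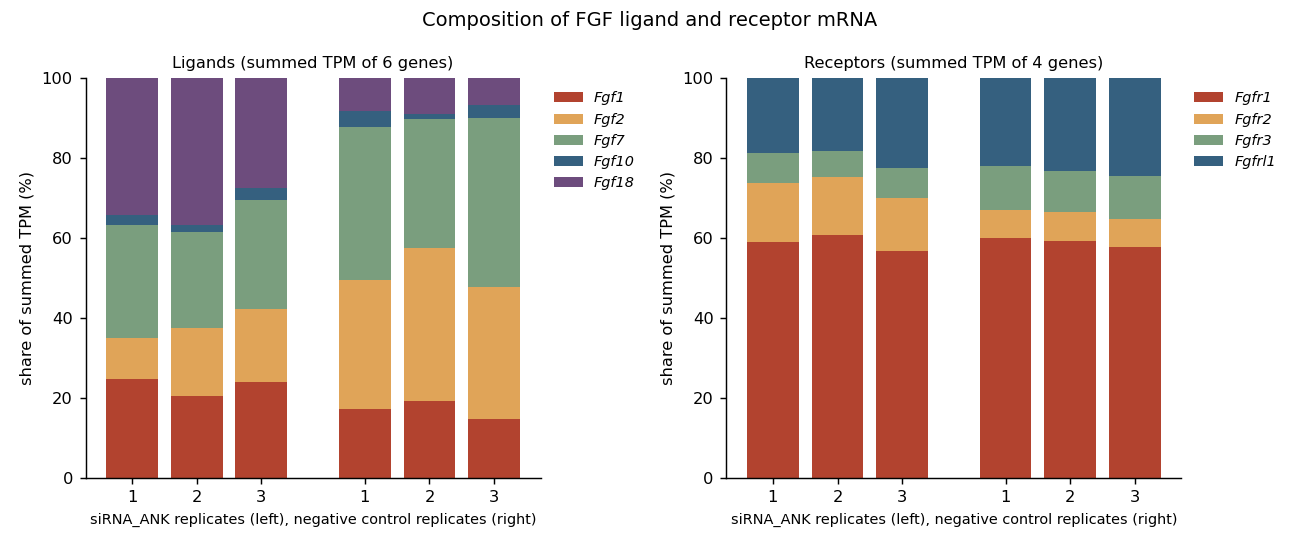
Share of each gene in the summed TPM of the 6 ligand genes (left panel, Fgf5 at 0) and of the 4 receptor genes (right panel), 1 bar per library, with siRNA_ANK replicates left of negative control replicates. The Fgf18 and Fgfr2 segments are larger in every siRNA_ANK bar, and the Fgf2 and Fgfr3 segments smaller.

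Other FGF genes were mostly silent. Of 12 further secreted ligand and receptor genes found in the files, 5 had no count in any library and 3 were tested. Of these, 1 rose, against 19.9% of all genes tested. This was Fgf21, known as a hormone of metabolic stress made in liver, which measured 0.719, 2.16 and 2.03 CPM in siRNA_ANK and 0.281, 0.691 and 0.4998 CPM in negative controls (log2 fold change 1.72 ± 0.46, SE, edgeR adjusted p = 0.00885). Fgf21 had 12, 36 and 32 counts in siRNA_ANK libraries and 5, 12 and 8 in negative controls. It passed the filter on low counts only because of the siRNA_ANK libraries, so its call is not independent of that filter. The Fgf21 locus overlaps Fut1 on the other strand, with 16 counts over the siRNA_ANK libraries and 4 over the controls, against 80 and 25 for Fgf21. Fgf22 and Fgf9, chosen after their values were seen, were not called. Per length, Fgf22 stood above every ligand member, at 22.5 ± 1.35 TPM in siRNA_ANK and 22.6 ± 3.82 TPM in negative controls (SD, n = 3 each, edgeR adjusted p = 0.901). With all 17 secreted ligand genes in the sum, the ligand total was 54.3 ± 6.55 TPM in siRNA_ANK and 41.9 ± 5.49 TPM in negative controls, 1.30-fold higher. Fgf9 measured 1.03 ± 0.253 and 1.13 ± 0.442 CPM in siRNA_ANK and negative controls. Fgfr4 had 0 to 4 counts per library.

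FGF homologous factors resemble FGFs in structure but stay inside the cell, where they bind voltage-gated sodium channels. Of the 4 genes, 2 were tested and 1 was called, against 40.1% of all genes tested. The called gene, Fgf14, had 55, 58 and 60 counts in siRNA_ANK libraries and 13, 10 and 15 in negative controls. It passed the filter on low counts only because of the siRNA_ANK libraries, so its call is not independent of that filter. Fgf14 measured 3.30, 3.47 and 3.80 CPM in siRNA_ANK and 0.731, 0.576 and 0.937 CPM in negative controls, a 4.70-fold rise without overlap (log2 fold change 2.23 ± 0.27, SE, edgeR adjusted p = 1.64e-05). Fgf13, chosen after its values were seen, averaged 5.85 ± 0.818 CPM in siRNA_ANK and 5.86 ± 0.983 CPM in negative controls (SD, n = 3 each). Fgf11, also chosen after its values were seen, had 18, 6 and 14 counts in siRNA_ANK libraries and 1, 0 and 3 in negative controls, and did not pass the filter on low counts.

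Co-receptors and carriers of FGFs were few. The klotho genes, whose proteins are needed by the hormone-like FGFs, were at 0 counts (Kl) or 1 to 5 counts per library (Klb). Of 7 genes in this list, 3 were tested, 1 rose and 1 fell, against 19.9% and 20.2% of all genes tested. The gene that rose, Flrt3, had 11, 21 and 14 counts in siRNA_ANK libraries and 8, 7 and 6 in negative controls. It passed the filter on low counts only because of the siRNA_ANK libraries, so its call is not independent of that filter. Flrt2, which encodes a membrane protein of the FLRT family that can bind FGF receptors, measured 57.6, 52.3 and 55.9 CPM in siRNA_ANK and 85.9, 80.4 and 89.6 CPM in negative controls, 1.54-fold lower (log2 fold change -0.63 ± 0.07, SE, edgeR adjusted p = 3.76e-06). Flrt3, of the same family, was at 0.935 ± 0.302 CPM in siRNA_ANK and 0.409 ± 0.0380 CPM in negative controls (edgeR adjusted p = 0.0366), a call that was lost with DESeq2 (adjusted p = 0.105), with no filter (adjusted p = 0.0737), with the replicate number as a block (adjusted p = 0.0507), with negative control replicate 2 and siRNA_ANK replicate 3 both left out (adjusted p = 0.0727) and without any 1 library other than siRNA_ANK replicate 1 (adjusted p = 0.0508 to 0.180).

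All 14 listed genes for enzymes that build or trim heparan sulfate were tested. Of these, 6 rose and 5 fell, against 19.9% and 20.2% of all genes tested, and the median log2 fold change was 0.17. The 5 that fell include Hs3st1, with 0, 9 and 12 counts in siRNA_ANK libraries and 52, 39 and 23 in negative controls. Hs3st1 passed the filter on low counts only because of the negative control libraries, so its call is not independent of that filter. Ext1, a polymerase of the heparan sulfate chain, rose 2.14-fold to 404 ± 13.9 CPM in siRNA_ANK, against 189 ± 22.7 CPM in negative controls (edgeR adjusted p = 1.07e-07). Sulf1, which encodes an extracellular sulfatase that removes sulfate groups from heparan sulfate, measured 686 ± 52.1 CPM in siRNA_ANK and 382 ± 24.2 CPM in negative controls, 1.80-fold higher. Hs6st1, a sulfotransferase gene, measured 47.0 ± 5.17 and 23.6 ± 0.462 CPM in the same groups, 1.99-fold higher. Ndst2, which encodes an enzyme that replaces acetyl with sulfate groups, fell 1.54-fold, with 29.7 ± 2.73 CPM in siRNA_ANK and 45.8 ± 0.850 CPM in negative controls (SD, n = 3 each).

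Of 20 genes for adaptors and kinases between the receptors and ERK found in the files, 19 were tested, 2 rose, 6 fell and 11 were not called, with a median log2 fold change of -0.10. The 8 calls among 19 genes are near the 40.1% of all genes called in either direction. Gab1, a docking protein of receptor tyrosine kinases, rose 2.40-fold to 42.3 ± 9.83 CPM in siRNA_ANK, against 17.7 ± 1.22 CPM in negative controls (edgeR adjusted p = 0.000302). Map2k1, which encodes the ERK kinase MEK1, fell 1.82-fold to 154 ± 20.1 CPM in siRNA_ANK, against 281 ± 15.6 CPM in negative controls (edgeR adjusted p = 6.62e-06). The adaptor genes Shc1 and Crk fell 1.35-fold and 1.33-fold. Mapk3, which encodes the kinase ERK1, is listed at 0 counts in every library.

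Genes known to be induced by FGF and ERK signalling, among them its feedback inhibitors, changed in opposite directions. Of 18 genes, 16 were tested, of which 8 rose and 7 fell, against 19.9% and 20.2% of all genes tested, with a median log2 fold change of 0.24. The 7 that fell include Dusp5, with 17, 9 and 30 counts in siRNA_ANK libraries and 35, 50 and 40 in negative controls. Dusp5 passed the filter on low counts only because of the negative control libraries, so its call is not independent of that filter. Within the Sprouty family of signalling inhibitors, Spry1 measured 15.5, 15.5 and 16.0 CPM in siRNA_ANK and 5.23, 5.07 and 5.50 CPM in negative controls, 2.97-fold higher (log2 fold change 1.57 ± 0.12, SE, edgeR adjusted p = 1.38e-07). Spry4 was 1.64-fold higher, with 42.4 ± 3.06 CPM in siRNA_ANK and 25.8 ± 4.34 CPM in negative controls. Spry2 instead fell 1.69-fold, measuring 33.6, 35.1 and 36.2 CPM in siRNA_ANK and 58.6, 59.2 and 59.4 CPM in negative controls (edgeR adjusted p = 5.52e-07). Ccnd1, which encodes the cell cycle protein cyclin D1, rose 1.67-fold. Dusp6, a phosphatase gene that limits ERK, and the ETS transcription factor genes Etv4 and Etv5 were chosen after their values were seen. Dusp6 was 1.72-fold higher (edgeR adjusted p = 0.00129), while Etv4 was 1.32-fold lower (adjusted p = 0.00894) and Etv5 1.45-fold lower (adjusted p = 0.0147), a call that was lost without siRNA_ANK replicate 1 (adjusted p = 0.0516).

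**Figure D4:**
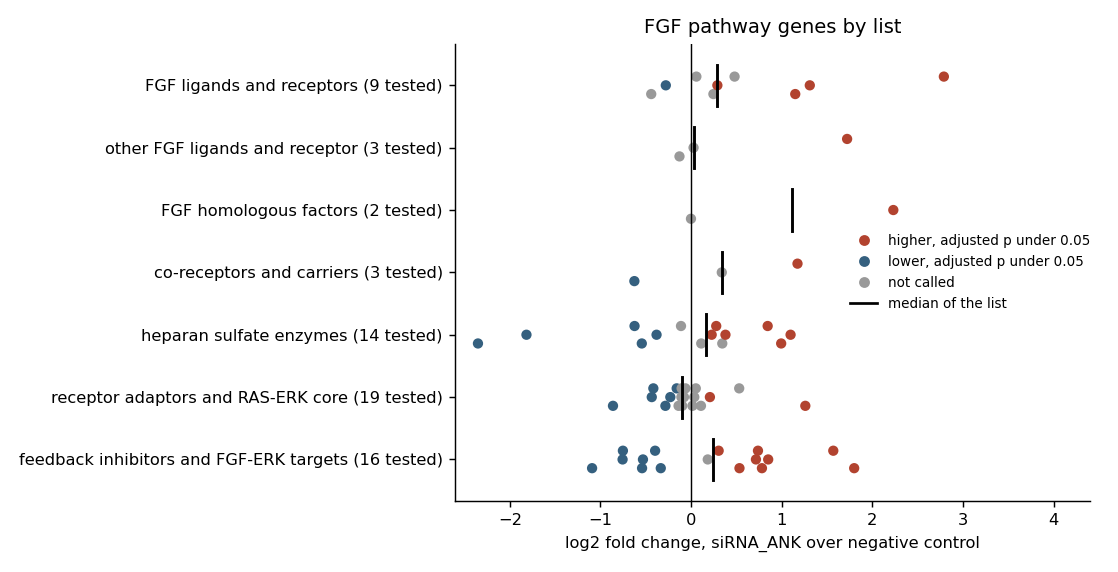
Log2 fold change (siRNA_ANK over negative control) of each tested gene in the FGF ligand and receptor set and in 6 lists of related genes, coloured by call at an adjusted p under 0.05, with the median of each list as a black bar. The heparan sulfate enzymes (6 higher, 5 lower) and the feedback inhibitors and targets (8 higher, 7 lower) spread to both sides of 0.

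By rule, the genes most like the most abundant ligand and receptor member by mean CPM were sought over the 6 libraries by Pearson correlation of log2 CPM, given as a description. For Fgf1 these were Trib2 (r = 0.9992), Tgfb1i1 (r = 0.9987) and Exoc6b (r = 0.9981), and for Fgfr1 Ybey (r = 0.9976), Rasal2 (r = 0.9970) and Rxfp3 (r = 0.9961). Of 12791 genes compared, 1617 correlated with Fgf1 and 921 with Fgfr1 at r above 0.9, and all 6 points share the split into groups.

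**Figure D5:**
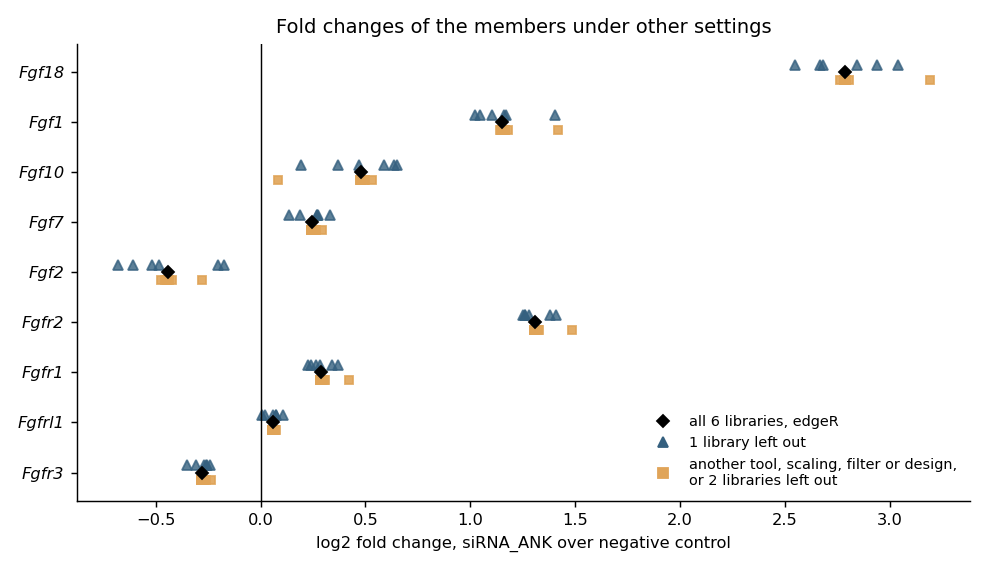
Log2 fold change (siRNA_ANK over negative control) of the 9 tested FGF genes with all 6 libraries in edgeR (black diamonds), with 1 library left out (blue triangles) and under the other settings (orange squares). No gene crosses 0. Fgfr3 spans -0.35 to -0.24 with 1 library left out, and Fgf18 spans 2.55 to 3.04.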

How the data were processed

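Total RNA of 3 siRNA_ANK and 3 negative control samples was purified with a GeneJet kit and sequenced as Illumina libraries, per the labels' protocols. The deposited values are raw counts per gene, 1 table per library, not normalized. The submitters' processing notes name featureCounts 1.5.0-p3, DESeq2 and the genome build mRatBN7.2. Aligner, strand setting and read filters: not given in the sources used here. Of the rows, 385 are loci with coordinates but no symbol or Ensembl identifier, and were treated like the other genes. Gene lengths are those of the deposited tables.

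Tests ran in edgeR 4.0.16 (R 4.3.3). The filter on low counts, filterByExpr (minimum count 10, minimum total 15), left 13016 genes. The two-sided robust quasi-likelihood test used TMM scaling, no covariate and Benjamini-Hochberg adjustment over all genes tested. The SE is the log2 fold change over the square root of F. CPM uses the tested genes' totals times TMM factors, and log2 CPM a prior of 0.5. TPM was computed from counts and lengths. Shares were compared by exact permutation of libraries (SciPy 1.17.1). The steps were tested on simulated counts. No 2 libraries of a group agreed within sampling noise (chi-square per degree of freedom 2.83 to 12.3).

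The members and gene lists were chosen with earlier results of these data known. Beside the members and Ankh, the text names genes by rule: up to 4 called genes of each list, those with the lowest adjusted p, and where a list had no call its 2 most abundant genes. Outside this rule stand genes marked as chosen after their values were seen, other uncalled or untested list genes, and genes overlapping a locus. So do Clec3b, Hs3st1 and Dusp5, called genes that passed the filter on low counts only because of a single group. Correlated genes were named by their own rule. Alternatives were DESeq2 1.42.0, limma-voom (limma 3.58.1), DESeq2 size factors, upper quartile scaling, the replicate number as a block, leaving out each library, and other filters (at least 1 count in all, or a mean CPM of at least 5). Leaving out negative control replicate 2 with siRNA_ANK replicate 3, and the 20 most abundant genes from the scaling, are alternatives chosen after seeing the data.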

Additional observations from a re-analysis of the deposited data

How the results depend on the processing

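Fgf1, Fgfr1 and Fgfr2 kept their call and direction under every alternative run, and Fgf18 under every one that tested it (it fell below the 5 CPM filter, where 3 members were higher). With 1 library left out, 4 members were higher each time and 0 to 1 lower, the log2 fold change of Fgfr3 ranging from -0.35 to -0.24 (adjusted p = 0.0131 to 0.0671). Over all genes, 1991 to 2874 were higher and 2062 to 2976 lower with 1 library left out, and 3007 and 3049 with negative control replicate 2 and siRNA_ANK replicate 3 both left out. The replicate numbers are shared between groups, but same-numbered libraries deviated together only weakly (correlations -0.0306, 0.0835 and 0.0491), and 1 of 3 siRNA_ANK libraries correlated best with its own number. With the replicate number as a block, 2579 genes were higher and 2631 lower, and no member changed its call.

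Among small lists, the co-receptors and carriers had 0 higher genes instead of 1 with DESeq2, with no filter, with the 5 CPM filter, with the replicate block and with both libraries left out, and 0 to 1 with 1 library left out. The FGF homologous factors had 2 higher with no filter, 0 with the 5 CPM filter and 1 to 2 with 1 library left out. At 5 CPM fewer genes were tested: the other FGF ligands had 0 higher, the heparan sulfate enzymes 3 lower and the fibroblast markers 3 higher. With 1 library left out, 1 to 3 adaptors were higher, 4 to 6 feedback inhibitors and targets lower, and 1 to 2 endothelial markers lower (2 with both libraries left out).

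Signs turned only for values near 0. Fgf13 was 0.0040 with limma-voom, 0.015 with upper quartile scaling, 0.0093 at 5 CPM and 0.00084 with the replicate block, and -0.14 to 0.074 with 1 library left out. Fgf22 was -0.0041 with both libraries left out and -0.053 to 0.16 with 1 left out, and Fgf9 -0.39 to 0.19. The difference in the Fgfr1 share (siRNA_ANK minus negative control) was -1.20 to 0.83 percentage points with 1 library left out. That of Fgf10 was -1.35 to 0.0053 points, and 0.0682 points with all secreted ligands in the sum. The causes were not tested.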
